A study of Dendrobium huoshanense with 6 samples.

Results

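Among the transcript clusters of Dendrobium huoshanense seedlings, 35 changed their dominant contig between cold and normal growth while the total of the cluster stayed within 2-fold. Contigs of the assembly were grouped by the cluster prefix of their ID. A cluster was taken when its estimated reads summed to at least 200 in every library, when the ratio of mean cold to mean normal growth CPM (reads scaled to library size) lay between 0.5 and 2, when 1 contig held at least 50% of its reads in all 3 normal growth libraries, and when a different contig did so in all 3 cold libraries. The 35 clusters hold 123 of the 79016 clustered contigs and are 35 of 16105 clusters in all. They took 0.212% to 0.256% of the reads of a library.

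The data are poly(A)-selected RNA-seq libraries from whole seedlings of this medicinal orchid. The cold group holds 3 libraries of seedlings kept at 4 °C, and the normal growth group holds 3 libraries. All come from plants of 1 species, described as annual, with 11 h of light per day. The protocol, which is the same text for every sample, names collection at 0 and 7 days. This is read here as day 7 for cold and day 0 for normal growth, so cold and time cannot be told apart. The number of seedlings in a library is not given, so the spread between libraries may be technical in part. Whole seedlings mix all tissues, and a different mix of tissues cannot be told apart from a different use of contigs within a tissue, nor fewer cells of a type from less RNA per cell.

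A plant gene can give several transcripts through alternative splicing, alternative start sites and alternative polyadenylation, and low temperature is known to change the splicing of many plant transcripts, with clock genes and genes of SR splicing proteins among the studied cases in Arabidopsis. In an assembly made without a genome, the contigs of a cluster can be such splice forms, but also alleles, close paralogs or fragments of 1 transcript. The tables pair no gene or product name with any ID and hold no sequence. The clusters are therefore described by ID, contig length and read share, with no function given.

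The switch was rare among the clusters that could have shown it. Of 6106 clusters with enough reads, 4599 had a steady total by the same limits. In 1301 of these, 1 and the same contig was dominant in all 6 libraries, and in 35 the dominant contig differed between the groups, which is 2.62% of the 1336 clusters with a dominant contig in both groups. The other 3263 steady clusters, or 71.0%, had no dominant contig in one or both groups. Among them, 843 had one in normal growth alone and 207 in the cold alone.

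Libraries of the same group also differed in their top contig, and this spread has to be read beside every switch. Over the 4599 steady clusters, the contig with most reads differed in 31.6% to 44.7% of clusters between a cold and a normal growth library, with a mean of 37.2% over 9 pairs. It differed in 31.1% to 40.2% between 2 cold libraries, with a mean of 36.5%, and in 21.8% to 26.7% between 2 normal growth libraries, with a mean of 24.8%. The mean between groups was thus close to that among cold libraries. Cold replicate 2 differed most from the other libraries. When it was left out, 53 clusters met the rule, and 34 of the 35 were among them. Clusters that meet the count and share limits in all libraries also meet them in fewer. Only a moved ratio could take a member out, so the 34 say nothing about cold replicate 2. The median share of the top contig over the steady clusters was 52.6% ± 0.81 in the cold and 60.6% ± 1.53 in normal growth (SD, n = 3 each; p = 0.1 in a two-sided exact permutation test, which cannot go lower with 3 libraries in each group).

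The shares of the 2 dominant contigs in the 35 clusters chose the clusters, so they are given as values without a test. The cold contig, as the contig dominant in the cold is called here, averaged 53.3% to 84.4% of the cluster's reads in the cold libraries, with a median of 62.0% over clusters. In the normal growth libraries it averaged 0.793% to 44.3%, with a median of 26.3%. The normal contig, dominant in normal growth, averaged 0.796% to 46.6% in the cold (median 28.0%) and 54.7% to 92.5% in normal growth (median 71.5%). The switch was therefore partial in most clusters. The normal contig still held at least 25% of the reads in some cold library in 26 clusters, and the cold contig did so in some normal growth library in 20. In only 6 clusters was the cold contig under 10% in all 3 normal growth libraries, and in 2 the normal contig was under 10% in all 3 cold libraries. No dominant contig was listed at 0 in all 3 libraries of the other group.

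**Figure D1:**
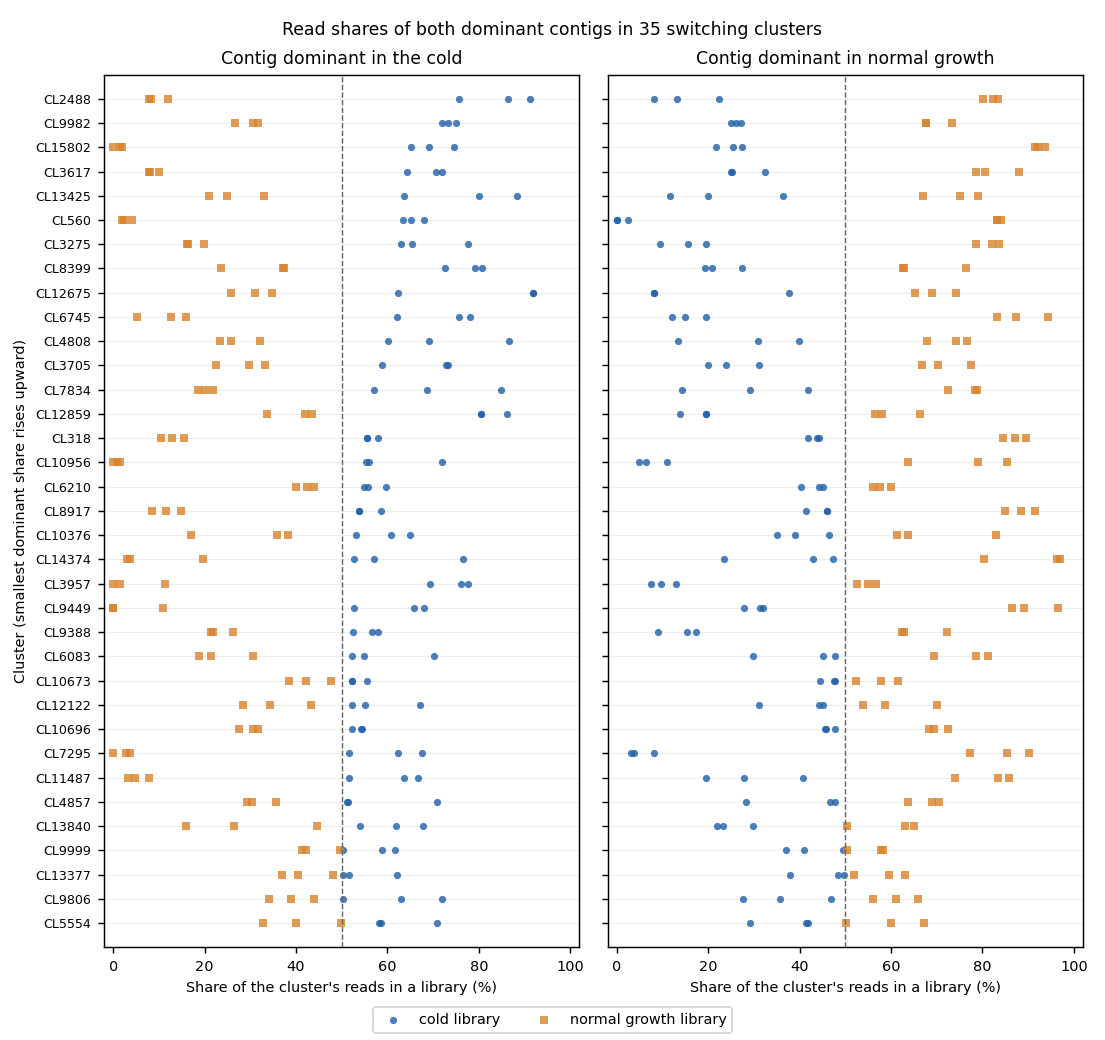
Each row is 1 of the 35 clusters; the x axes give the percent of the cluster's reads in a library held by the contig dominant in the cold (left) and by the contig dominant in normal growth (right), with 1 point per cold (blue circle) or normal growth (orange square) library and a dashed line at 50%. The groups lie on opposite sides of the line because the rule asks for it, and the smallest dominant share increases upward, from 50.1% for CL5554 to 75.6% for CL2488.

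Whether replicates of the cold group spread more by the median over clusters depended on the contig, and no difference was tested. The SD of the cold contig's share had a median of 7.26 percentage points over the 3 cold libraries. Over the 3 normal growth libraries it was 4.51. For the normal contig's share it was 4.38 over the cold libraries and 4.90 over the normal growth libraries. The smallest dominant share of a cluster lay in a cold library in 29 of 35 clusters, with 15 in cold replicate 1, 7 in cold replicate 2 and 7 in cold replicate 3. Dominant shares were also lower in the cold on average, with a median of 62.0% against 71.5% in normal growth. Counting error alone gave a 95% Wilson interval on a share of 2.70 percentage points either way at the median and 6.56 at most. The lower end of that interval lay above 50% in all 6 libraries in 19 of the 35 clusters, and in 16 it did not in at least 1 library. The rule chose these same shares at 50% or more, so the count of 19 describes the members and tests nothing.

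Libraries that had no part in the choice gave a reading of the sets chosen without them, not of the 35 clusters. Each library was left out in turn, clusters were chosen by the same rule on the other 5, and the library left out was then read. In cold replicates 1, 2 and 3, the cold contig held at least 50% of the reads in 64.3% of 56, 66.0% of 53 and 55.9% of 68 clusters chosen. In normal growth replicates 1, 2 and 3, the normal contig did so in 75.6% of 45, 76.1% of 46 and 85.0% of 40 clusters. The contig of the other group held at least 50% in 25%, 20.8% and 30.9% of clusters in the cold libraries, and in 17.8%, 15.2% and 10.0% in the normal growth libraries. In each of these sets the contig of the library's own group thus passed more often than that of the other group. Its share of clusters was higher in the normal growth libraries than in the cold ones. Clusters that kept 1 contig dominant in all 5 libraries used did better, at 85.0% to 98.5%. Of the switching clusters that passed, 35 of 36, 34 of 35 and 35 of 38 in cold replicates 1, 2 and 3 were members. In normal growth replicates 1, 2 and 3 it was 34 of 34, 35 of 35 and 34 of 34. Members had to pass, so these readings add nothing for the 35 clusters themselves.

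**Figure D2:**
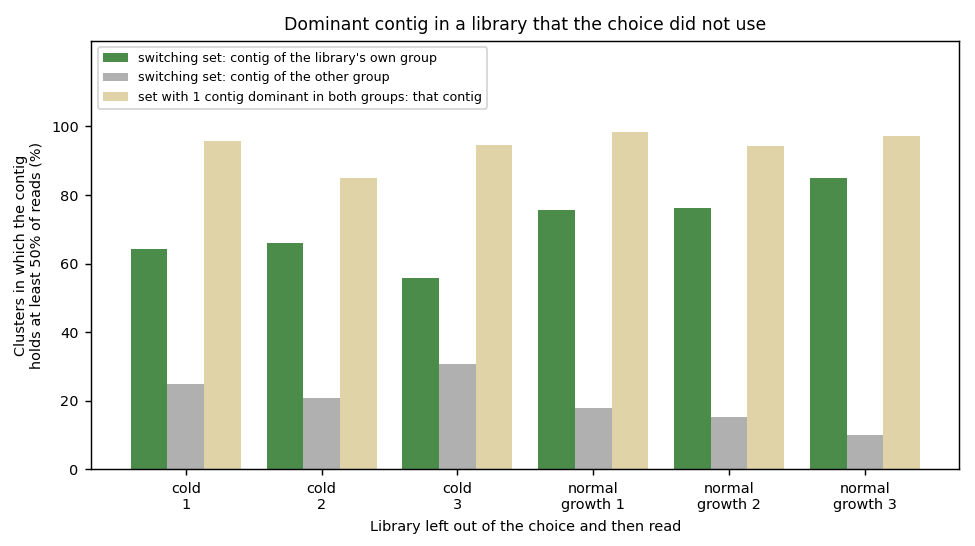
Bars give the percent of clusters in which a contig held at least 50% of the reads in the library named on the x axis, which had been left out when the clusters were chosen. In the switching sets the library's own group's contig passed in 55.9% to 85.0% (green) and the other group's in 10.0% to 30.9% (grey); in clusters with 1 contig dominant in both groups that contig passed in 85.0% to 98.5% (beige).

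Totals were held within 2-fold by the rule. Cold over normal growth ratios of mean CPM ran from 0.553 for CL560 to 1.81 for CL3957, with a median of 1.05, and 25 of the 35 lay within 1.5-fold. The totals of the cold and normal growth libraries overlapped in 18 clusters and did not in 17, of which 12 were higher and 5 lower in the cold. Among all 4599 steady clusters 47.7% did not overlap, and the share among the 35, 48.6%, was near that. Of the 35 totals, 7 passed an adjusted p of 0.05 (edgeR's quasi-likelihood fit with Benjamini-Hochberg correction over 35987 clusters and unclustered contigs), 5 higher and 2 lower, where 34.0% of all features were called. How many were called in each direction depended on the fit. Without a filter 0 were higher and 4 lower, where 15781 of 111553 features were called. With DESeq2 0 were higher and 1 lower, where 15168 of 59447 were called. The median log2 fold change over the features tested was 0.070 in the first fit, 0.79 without a filter and 0.35 with DESeq2. The rule limited the ratios of the 35, so nothing is read from these counts.

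**Figure D3:**
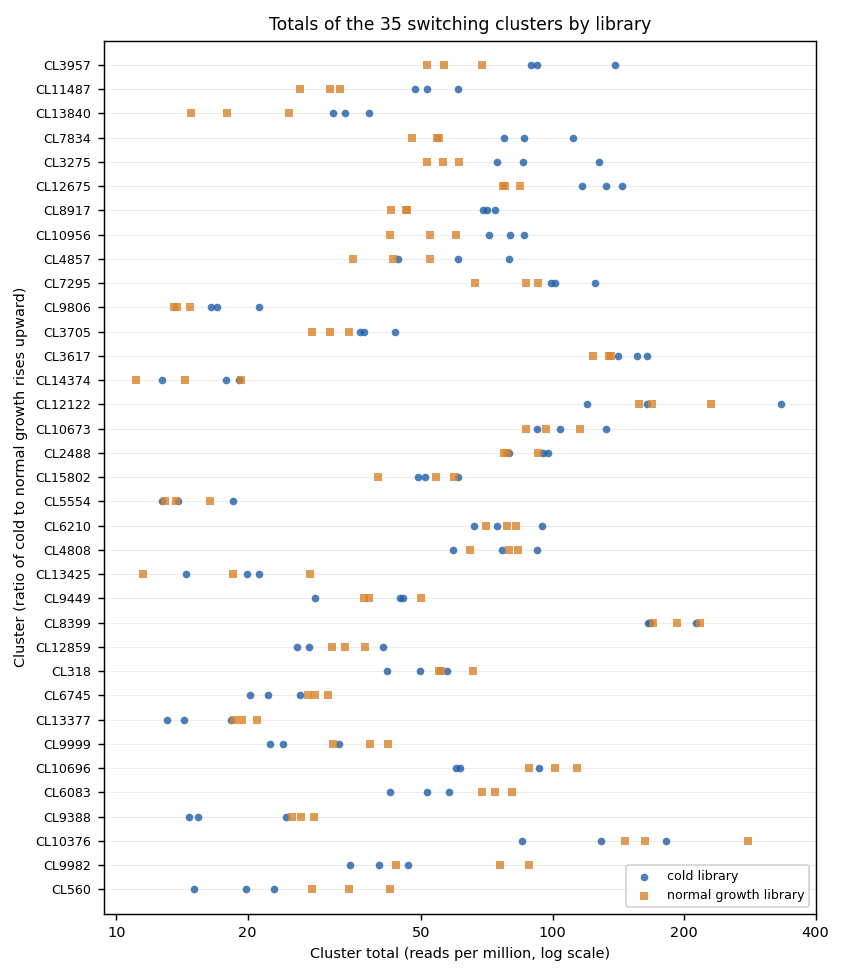
Total CPM of each of the 35 clusters (rows) in each library, on a log axis, with cold libraries as blue circles and normal growth libraries as orange squares. Rows are ordered by the ratio of cold to normal growth, from 0.553 at the bottom to 1.81 at the top, and the groups overlap in 18 rows.

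At the level of single contigs, mean CPM of the cold contig was 2-fold or more higher in the cold in 23 clusters, and mean CPM of the normal contig 2-fold or more lower in 23. Among all 70729 contigs tested, 34.0% were at least 2-fold higher and 24.1% at least 2-fold lower. Both held in 17 clusters, the first alone in 6, the second alone in 6 and neither in 6. Without any overlap of libraries, 29 of 35 cold contigs were higher in the cold, against 25.9% of tested contigs, and 25 of 35 normal contigs were lower, against 18.9%. At an adjusted p under 0.05 (edgeR), 17 cold contigs were higher and 18 normal contigs lower in the cold, against 9.74% and 6.53% of all tested contigs. The rule used this contrast, so these counts describe the members and support nothing. Both contigs were called in 10 clusters, the cold contig alone in 7, the normal contig alone in 8 and neither in 10. Calls became fewer when 1 library was left out, among the 70 contigs and over all contigs. Without cold replicate 1, 2 or 3, 2, 16 and 14 of the 70 were called. Over all contigs it was 174 of 76992, 3199 of 77244 and 1775 of 79410. Without normal growth replicate 1, 2 or 3, 1, 13 and 7 of the 70 were called. Over all contigs it was 142 of 80781, 2172 of 81093 and 653 of 80421, against 11505 of 70729 with all 6 libraries.

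**Figure D4:**
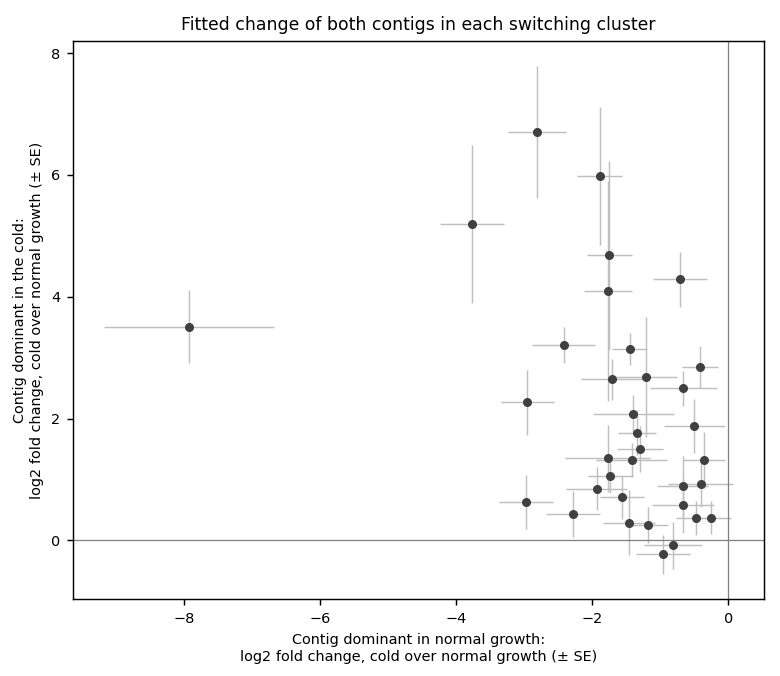
Each point is 1 cluster; the axes give the fitted log2 fold change (cold over normal growth, edgeR, bars ± SE) of its contig dominant in normal growth (x) and of its contig dominant in the cold (y). Points spread from near 0 on both axes to 6.70 for the cold contig of CL10956 and -7.92 for the normal contig of CL560, and in 2 clusters the cold contig lies slightly below 0.

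The 35 clusters were divided into 4 kinds after their values were seen, by which of both contigs differed at least 2-fold in mean CPM. The kinds do not rest on the edgeR calls. In the first kind neither contig of CL13425 and CL14374 was called, and only 1 in CL3275, CL3957, CL4808, CL9449 and CL12675. The first kind, where both contigs differed, holds the 17 clusters CL318, CL560, CL2488, CL3275, CL3617, CL3705, CL3957, CL4808, CL6745, CL7295, CL8399, CL9449, CL10956, CL12675, CL13425, CL14374 and CL15802.

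CL2488 had the largest smallest share of all, 75.6%, and is the only cluster that met the rule at 70%. CL2488.Contig1_All, of 2410 bases, held 75.6%, 91.2% and 86.3% of the reads in cold replicates 1, 2 and 3, against 12.1%, 7.94% and 8.37% in normal growth replicates 1, 2 and 3. CL2488.Contig2_All, of 1859 bases, held 22.3%, 8.22% and 13.1% in the cold, against 80.1%, 83.3% and 82.4% in normal growth. The exchange left the cluster total almost level, at 90.9 ± 9.83 CPM in the cold and 82.8 ± 8.53 CPM in normal growth (SD, n = 3 each), with overlapping libraries. The fitted log2 fold changes were 3.20 ± 0.30 for the cold contig and -2.42 ± 0.47 for the normal contig (SE).

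CL15802 exchanged a contig that was almost unused in normal growth. CL15802.Contig3_All, of 2272 bases, counted 540, 668 and 633 reads in the cold libraries, against 18.3, 10.5 and 0 in the normal growth libraries. Its share was 65.1% to 74.5% in the cold and 0% to 1.92% in normal growth. The longer CL15802.Contig1_All, of 2515 bases, held 25.3%, 27.5% and 21.8% in the cold, against 91.5%, 93.8% and 92.1% in normal growth. Neither group overlapped the other for either contig, and the totals, 53.7 ± 6.22 CPM in the cold and 51.0 ± 10.2 CPM in normal growth (SD, n = 3 each), did overlap.

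CL3617 was among both the clearest and the most abundant of the clusters. CL3617.Contig1_All, of 1339 bases, held 64.4%, 70.7% and 72.1% of the reads in the cold, against 8.16%, 7.78% and 9.92% in normal growth. CL3617.Contig2_All, of 1179 bases, held 32.3%, 25.1% and 25.1% in the cold, against 80.5%, 87.9% and 78.7% in normal growth. The totals of 154 ± 11.7 CPM in the cold and 131 ± 6.54 CPM in normal growth did not overlap (SD, n = 3 each).

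CL560, with 7 contigs the largest of the 35, had the largest fall of a normal contig among the 35. CL560.Contig2_All, of 2968 bases, counted 0, 0 and 6.2 reads in cold replicates 1, 2 and 3, against 502, 428 and 624 in normal growth replicates 1, 2 and 3. CL560.Contig6_All, of 5628 bases, had 197, 264 and 165 reads in the cold, against 12.3, 12.5 and 31.0 in normal growth. Its share in the cold was 63.4% to 68.0%. A further contig, CL560.Contig3_All of 4083 bases, took 13.7%, 23.3% and 16.3% in the cold, against 1.24%, 3.43% and 1.91% in normal growth. The cluster total was also the lowest relative to normal growth, at 19.3 ± 4.01 CPM in the cold and 34.9 ± 7.11 CPM in normal growth (SD, n = 3 each; log2 fold change -0.97 ± 0.24 SE, adjusted p = 0.022, edgeR, a ratio that the rule limited). Per length the cold contig was less clear: its share of the cluster's TPM (reads per length, scaled to 1 fixed sum per library) was 46.3%, 51.8% and 40.8% in the cold libraries.

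Read shares give a longer contig more weight, and CL6745 shows how far this can go. CL6745.Contig5_All, of 6487 bases, held 75.6%, 78.2% and 62.1% of the reads in the cold, against 5.11%, 16% and 12.7% in normal growth. CL6745.Contig1_All, of 899 bases, held 14.8%, 12.1% and 19.6% in the cold, against 94.4%, 83.2% and 87.3% in normal growth. In TPM, the short contig was the more abundant one in both groups: it had 7.76, 5.47 and 7.62 TPM in the cold against 4.78, 4.25 and 2.93 TPM for the long contig. In normal growth it had 54.9, 46.6 and 47.5 TPM against 0.36, 1.08 and 0.84 TPM for the long contig. The pair shifted on both scales, but the contig of the pair with the higher level per length did not change.

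CL7295 and CL10956 paired a cold contig near 0 in normal growth with a strong drop of the normal contig. CL7295.Contig5_All, of 1391 bases, had 783, 1315 and 1178 reads in the cold, against 56.6, 0 and 33.2 in normal growth. CL7295.Contig4_All, of 2558 bases, had 47.2, 81.2 and 142 reads in the cold, against 1187, 1511 and 1006 in normal growth. CL10956.Contig5_All, of 3001 bases, had 875, 810 and 683 reads in the cold, against 0, 9.45 and 14.0 in normal growth. CL10956.Contig1_All, of 3045 bases, had 133, 92.8 and 60.7 reads in the cold, against 593, 692 and 794 in normal growth. These clusters also used further contigs. At its lowest the pair held 54.7% of the reads of CL7295, in cold replicate 1, and 60.2% of those of CL10956, in cold replicate 3.

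CL3957 lay nearest to the upper limit of the ratio, with totals of 107 ± 27.8 CPM in the cold and 58.9 ± 8.87 CPM in normal growth (SD, n = 3 each). CL3957.Contig6_All, of 2308 bases, held 69.2%, 76.2% and 77.7% of the reads in the cold, against 0%, 11.4% and 1.48% in normal growth. CL3957.Contig4_All, of 2198 bases, held 9.62%, 7.48% and 12.9% in the cold, against 54.9%, 56.6% and 52.7% in normal growth. A further contig, CL3957.Contig2_All of 2023 bases, went with the normal contig, at 9.09%, 3.94% and 3.20% in the cold against 25%, 22.5% and 17.3% in normal growth. CL9449 had a similar cold contig. CL9449.Contig2_All, of 1847 bases, had 464, 252 and 515 reads in cold replicates 1, 2 and 3, and was listed at 0, 0 and 74.0 reads in normal growth replicates 1, 2 and 3.

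Of the clusters with 2 contigs only, where the shares of both add up to 100%, the first kind holds CL4808, CL8399, CL12675, CL13425 and CL14374. CL8399 was the second most abundant of the 35. CL8399.Contig2_All, of 1850 bases, held 79.3%, 80.8% and 72.6% of its reads in the cold, against 37.4%, 23.5% and 37.3% in normal growth, and CL8399.Contig1_All, of 1725 bases, held the rest. The total was 182 ± 26.8 CPM in the cold and 193 ± 23.8 CPM in normal growth (SD, n = 3 each), and the libraries of the groups overlapped.

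In CL12675, a pair of 5786 and 5571 bases, 1 cold library stood apart from the other two. CL12675.Contig1_All held 91.8%, 91.8% and 62.4% in cold replicates 1, 2 and 3, against 31.0%, 34.8% and 25.8% in normal growth replicates 1, 2 and 3. The total was 131 ± 13.9 CPM in the cold and 79.6 ± 4.03 CPM in normal growth (SD, n = 3 each). CL13425 had far fewer reads, 208 in its shallowest library, and CL13425.Contig1_All, of 2911 bases, held 88.4%, 63.7% and 80.0% in the cold, against 21.0%, 24.9% and 32.9% in normal growth. CL14374 had the smallest count of any member, 201 reads, and CL14374.Contig2_All, of 2927 bases, held 76.4%, 57.0% and 52.7% in the cold, against 3.02%, 3.59% and 19.6% in normal growth. CL4808.Contig1_All, of 2264 bases, held 60.2%, 86.7% and 69.1% in the cold, against 23.4%, 25.7% and 32.1% in normal growth.

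The last 3 of the first kind were CL318, CL3275 and CL3705. CL318, with contigs of 4504 and 4632 bases, varied little over replicates: CL318.Contig2_All held 55.5%, 55.5% and 57.9% in the cold, against 12.8%, 10.5% and 15.5% in normal growth. CL3275.Contig1_All, of 3202 bases, held 65.4%, 62.9% and 77.7% in the cold, against 16.4%, 16.1% and 19.8% in normal growth. CL3705.Contig3_All, of 2241 bases, held 58.7%, 73.3% and 72.8% in the cold, against 29.8%, 33.3% and 22.5% in normal growth.

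The second kind holds the 6 clusters in which the cold contig was at least 2-fold higher and the normal contig differed less: CL4857, CL7834, CL8917, CL9806, CL11487 and CL13840. Their totals were all higher in the cold, at ratios of 1.30 for CL9806 to 1.79 for CL11487. The way this kind was defined favours that direction, so nothing is read from it. CL8917 shows the pattern with little spread. CL8917.Contig1_All, of 1506 bases, had 569, 700 and 685 reads in the cold, against 93.6, 71.1 and 112 in normal growth, a log2 fold change of 2.84 ± 0.34 (SE). CL8917.Contig2_All, of 1387 bases, had 487, 494 and 586 reads in the cold, against 722, 766 and 643 in normal growth, a log2 fold change of -0.42 ± 0.26 (SE). Its total was 71.2 ± 2.31 CPM in the cold and 45.0 ± 2.04 CPM in normal growth (SD, n = 3 each), without overlap.

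CL11487 had a larger step of the same form, as CL11487.Contig2_All, of 1940 bases, held 63.7%, 66.6% and 51.5% in the cold, against 4.75%, 7.85% and 3.35% in normal growth. CL7834.Contig1_All, of 3139 bases, held 57.1%, 84.9% and 68.6% in the cold, against 21.9%, 20.1% and 18.7% in normal growth. CL13840 has 6 contigs, with a cold contig of 1638 bases and a normal contig of 970 bases. CL13840.Contig2_All held 61.8%, 67.9% and 54.1% in the cold, against 16%, 44.6% and 26.4% in normal growth. CL13840.Contig1_All held 23.1%, 22% and 29.7% in the cold, against 63.2%, 50.4% and 65.1% in normal growth. CL13840, CL4857 and CL9806 passed narrowly, with smallest dominant shares of 50.4%, 51.2% and 50.3%. CL4857.Contig1_All, of 2280 bases, held 51.2%, 51.5% and 70.8% in the cold, against 29.3%, 30.3% and 35.5% in normal growth. CL9806.Contig1_All, of 2766 bases, held 72.1%, 50.3% and 63.0% in the cold, against 34.2%, 44.0% and 39.0% in normal growth. Its mean CPM in the cold was 2.03 times that in normal growth, while its fitted log2 fold change was 0.93 ± 0.39 (SE), under 2-fold.

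The kind with a lower normal contig holds the 6 clusters in which the normal contig was lower by 2-fold or more and the cold contig differed less: CL6083, CL9388, CL9982, CL10376, CL10696 and CL12859. Their totals were all lower in the cold, at ratios of 0.582 for CL9982 to 0.928 for CL12859. Here too the definition of the kind favours the direction, and nothing is read from it. CL9982 was the second clearest switch of all 35. CL9982.Contig2_All, of 1277 bases, had 131, 206 and 188 reads in the cold, against 1056, 1006 and 524 in normal growth, a log2 fold change of -2.28 ± 0.40 (SE). CL9982.Contig1_All, of 1340 bases, had 393, 577 and 497 reads in the cold, against 494, 367 and 237 in normal growth, so its reads overlapped between the groups. It became the dominant contig, at 72.0% to 75.0% of the reads in the cold and 26.8% to 31.6% in normal growth, with a log2 fold change of 0.43 ± 0.38 (SE).

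CL10376 was the most abundant cluster after CL12122 and CL8399 and one of the most variable. CL10376.Contig1_All, of 1312 bases, held 53.2%, 60.8% and 65.0% in the cold, against 35.8%, 17.0% and 38.3% in normal growth, with totals of 132 ± 48.6 CPM in the cold and 197 ± 73.1 CPM in normal growth (SD, n = 3 each). CL12859.Contig1_All, of 1337 bases, held 86.2%, 80.5% and 80.4% in the cold, against 33.7%, 43.5% and 41.9% in normal growth. CL6083.Contig1_All, of 2914 bases, held 52.2%, 70.1% and 54.8% in the cold, against 18.7%, 21.3% and 30.5% in normal growth. CL10696.Contig2_All, of 1786 bases, held 52.2%, 54.5% and 54.3% in the cold, against 27.5%, 31.7% and 30.6% in normal growth. Per length the normal contig of CL10696, of 1310 bases, was the more abundant one in every library. It held 54.0% to 56.3% of the cluster's TPM in the cold and 75.2% to 78.7% in normal growth. In CL9388 the cold contig of 1120 bases held 52.4%, 57.9% and 56.7% in the cold, against 21.9%, 21.3% and 26.1% in normal growth. A further contig there, CL9388.Contig3_All, varied between cold libraries from 2.40% to 30.2%.

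The fourth kind holds the 6 clusters in which neither contig differed 2-fold: CL5554, CL6210, CL9999, CL10673, CL12122 and CL13377. CL12122 was the most abundant of the 35 and its total varied widely in the cold, with 120, 164 and 334 CPM in cold replicates 1, 2 and 3, against 169, 231 and 157 CPM in normal growth replicates 1, 2 and 3. CL12122.Contig3_All, of 4285 bases, held 52.2%, 55% and 67.2% in the cold, against 43.2%, 28.5% and 34.3% in normal growth, while CL12122.Contig4_All, of 6966 bases, held 45.0%, 44.3% and 31.1% in the cold, against 53.8%, 70.1% and 58.6% in normal growth.

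CL10673 holds the one dominant contig above 8000 bases, CL10673.Contig1_All of 8940 bases. It held 44.5%, 47.7% and 47.6% in the cold, against 52.4%, 57.8% and 61.5% in normal growth. CL10673.Contig2_All, of 6216 bases, held 55.5%, 52.2% and 52.3% in the cold, against 47.6%, 42.2% and 38.5% in normal growth. The average shift of the cold contig, 10.6 percentage points, was the smallest of the 35 clusters. CL13377, a pair of 4397 and 1870 bases, shifted little too: CL13377.Contig1_All held 50.3%, 51.6% and 62.1% in the cold, against 37.0%, 40.4% and 48.1% in normal growth. Per length the shorter contig was the more abundant one in all 6 libraries, at 59.9% to 70.9% of the cluster's TPM in the cold and 72.6% to 80.7% in normal growth.

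CL6210 shifted by a small but even step, with CL6210.Contig1_All, of 1516 bases, at 59.6%, 55.8% and 54.8% in the cold, against 40%, 44.0% and 42.4% in normal growth. In CL9999, the cold contig of 4498 bases held 50.3%, 61.7% and 58.8% in the cold, against 42.1%, 49.5% and 41.4% in normal growth. Its mean CPM was 0.908 times that of normal growth, so it became dominant while its own level was no higher. CL5554 was the member closest to the limit of 50%: CL5554.Contig2_All, of 1954 bases, held 60.1%, 50.1% and 67.2% in normal growth, and in replicate 2 the 95% Wilson interval ran from 43.8% to 56.2%.

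The limits of the rule fell between clusters with close values. CL5554 and CL9806 had smallest dominant shares of 50.1% and 50.3%, and CL4464 and CL4463, which were not taken, had 49.7% and 49.6%. At the ratio limits, CL3957 and CL560 were inside at 1.81 and 0.553, and CL9816 and CL6441 were outside at 2.12 and 2.18. At the count minimum, CL14374 and CL13425 were inside with 201 and 208 reads in their shallowest library, and CL9739 and CL5483 were outside with 198 and 184.

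The rule names neither contig length nor contig number, but both bear on a read share, so the members' lengths and numbers are given as a description. The cold contig was the longer one in 23 clusters and the normal contig in 12, with median lengths of 2280 and 2131 bases. Their ratio had a median of 1.05, and 16 pairs differed by no more than 1.1-fold. Among the 27 clusters that met the rule on TPM, the cold contig was the longer one in 16. Of the 35 pairs, only CL6745 and CL13377 differed more than 2-fold, both with the longer contig dominant in the cold. In the other direction the ratios of the cold to the normal contig were 0.544 for CL7295, 0.615 for CL12122 and 0.695 for CL10673. The cold contig was the longest of its cluster in 20 clusters (57.1%) and the normal contig in 10 (28.6%). Among the 1301 clusters that kept their contig, the dominant contig was the longest in 49.9% and had a median length of 1666 bases. These shares were not tested against each other.

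**Figure D5:**
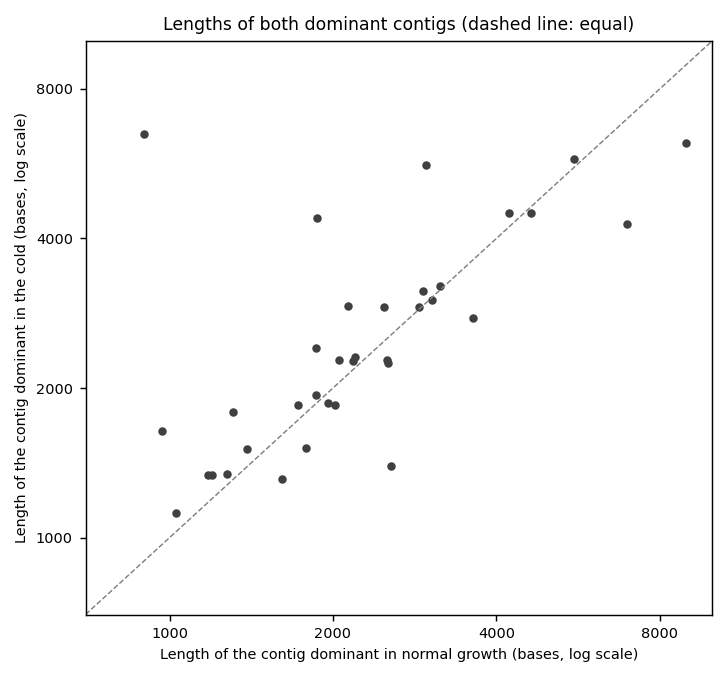
Each point is 1 of the 35 clusters, with the length in bases of its contig dominant in normal growth on the x axis and of its contig dominant in the cold on the y axis, both on log scales; the dashed line marks equal lengths. Of the points, 23 lie above the line and 12 below.

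The clusters were small, with 2 to 7 contigs and a median of 3. In 10 of them there were 2 contigs, in 13 there were 3, in 2 there were 4, in 5 there were 5, in 4 there were 6, and CL560 had 7. The clusters that kept their contig had the same median of 3, and 41.3% of them had 2 contigs, against 28.6% of the 35. Steady clusters as a whole had a median of 5 contigs and reached 302. No cluster of 30 or more contigs was among the 35. The 2 dominant contigs held at least 90% of the reads in every library in 23 clusters, 13 of which had further contigs, and the pair fell under 75% in some library in CL560, CL3957, CL7295, CL9388 and CL10956.

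On TPM, 23 of the 35 clusters met the same rule with the same pair of contigs and 12 did not. In 25 the contig with the highest TPM was the same as the contig with most reads in all 6 libraries. The 12 were CL560, CL4857, CL5554, CL6745, CL9806, CL9999, CL10673, CL10696, CL12122, CL13377, CL13840 and CL14374. The estimated counts themselves rest on divided reads: 95.7% of the values of the 70 dominant contigs were not whole as written to 2 decimals. The share was 95.3% for the dominant contigs of clusters that kept theirs. How the division of reads between similar contigs bears on the shares was not tested.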

How the data were processed

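The tables list, per the file headers, contig length and effective length beside the expected count, TPM and FPKM of 181669 contigs in 6 libraries. Reads that fit several contigs were divided among them in the expected counts, which the authors deposited. The TPM deposited by the authors have 1 fixed sum per library, and the FPKM deposited by the authors were not used. Per the submitters' processing notes the tools were Bowtie2 2.2.5, RSEM 1.2.8 and DESeq2. The assembler and the clustering: not given in the sources used here. Libraries held 15284397 to 18085164 estimated reads. Read shares were computed from unrounded counts and CPM from column totals. Rounded counts were tested with edgeR 4.0.16 in R 4.3.3 (filterByExpr, TMM, quasi-likelihood, Benjamini-Hochberg over all features), and the SE is the log2 fold change over the square root of F. The rule found switches planted in simulated clusters, which had large shifts and counting error only. That is less spread than these replicates show, so it checks the code and says nothing about the members. In simulated counts with large planted changes, the contig fit called only a minority of them and the cluster fit called most. The p-values measure only the spread between these samples. Replicates were no duplicates (chi-square per degree of freedom 29.6 to 59.8). Wilson intervals cover counting error only.

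The members and lists were chosen with earlier results of these data known. The naming rule took clusters with the 6 highest smallest shares, the 6 highest mean CPM, the 3 largest length ratios in each direction, the 3 with most contigs, and those nearest to the share and ratio limits; the other members, and those nearest to the count minimum, were added after their values were seen. The alternatives were other minimum counts, shares and ratio limits, TMM-scaled CPM, TPM shares, rounded counts, DESeq2 1.42.0, other filters, a replicate block and leaving out each library.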

Additional observations from a re-analysis of the deposited data

How the results depend on the processing

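The 35 switching clusters became 21 at a minimum of 500 reads, 11 at a share of 60% (also 11 with no limit on the ratio), 1 at 70% and 19 with the Wilson lower bound above 50%. Leaving out 1 library gave 40 to 68, since fewer libraries had to meet the rule. Of the 35, 34 or 35 were among them, which follows from the rule, since only a moved ratio could take a member out. The number was 56, 53 or 68 without cold replicate 1, 2 or 3. It was 48 at a minimum of 100 reads, 44 with no ratio limit, 36 with TMM-scaled CPM, 35 with rounded counts, 27 with TPM shares and 25 within 1.5-fold. The median share of clusters that passed in a library left out, 70.8%, was 100% at a share of 70%, where only 1 to 3 clusters were chosen, and 66.1% to 75.0% in the other settings.

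Over all features, the 11505 contig calls became 21182 with the DESeq2 Wald test, 267 at an adjusted p of 0.01, and 142 to 3199 on leaving out 1 library. Without a filter 27 of the 70 dominant contigs were called, against 7978 of 170659 contigs in all. At an adjusted p of 0.01 it was 3 of the 70, against 267 of 70729. The 12246 cluster calls among 35987 features became 15781 among 111553 without a filter and 15168 among 59447 with DESeq2. They became 4630 at an adjusted p of 0.01 and 6997 to 12211 on leaving out 1 library. Of the 35 totals, 7 were called by edgeR (5 higher, 2 lower), 4 without a filter (0 higher), 1 with DESeq2 (0 higher) and 0 to 5 on leaving out 1 library. In the fit with a replicate block, the edgeR calls were 0 for contigs, with 18452 at p under 0.05 before adjustment, and 6319 for clusters, 0 of the 35 among them. Deviations of same-numbered libraries from their group means correlated at -0.089 to -0.0068, so their numbers are taken as names only. The Wilson bound, the 60% share without ratio limit, the most counted contig, and the settings for pairs of libraries and for lengths were chosen after seeing the data. Except for the settings that change how many libraries or clusters enter, the cause was not tested.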

Other observations

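The same switch of dominant contig occurred in 9 clusters whose totals lay outside the ratio limits, 4 higher and 5 lower in the cold. Their ratios ran from 0.197 for CL13993 to 2.74 for CL5820, and their smallest dominant shares from 50.2% to 55%. CL13993, with contigs of 2218 and 2198 bases, had a mean total of 16.9 CPM in the cold and 85.7 CPM in normal growth. CL5820, with contigs of 2066 and 1649 bases, had 53.9 CPM in the cold and 19.7 CPM in normal growth. In CL5820 the normal contig held at least 92.3% of the reads in each normal growth library.

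On TPM, 4 clusters met the rule that did not meet it on reads. The most abundant was CL8899, at a mean of 313 CPM in the cold and 301 CPM in normal growth. Its cold contig of 1100 bases held at least 57.8% of the cluster's TPM in each cold library, and its normal contig of 897 bases at least 60.2% in each normal growth library. CL8698 was the one among them with a wide difference in length, 442 bases for the cold contig and 2384 for the normal contig.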
